A study of Mus musculus with 27 samples.

Results

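Neutrophils carry their weapons in granules that are filled in a set order while the cell matures, and the 37 genes described here mark that order. They are a fixed list of symbols, drawn up when earlier results of these data were known, and all 37 were found among the 37095 rows of the count table. The libraries came from skull, meninges and brain of mice at 24 h or 0.5 h after UVB light (311 nm, 2 mW) on the interparietal bone, a plate of the rear skullcap, and from untreated mice, with 3 libraries in each of the 9 groups. The skull sample is the skullcap with its marrow, rinsed of blood, and the meninges were scraped off it. Strain, age, sex, the handling of the untreated mice, the clock time of collection and whether replicates were separate animals are not given in the labels, so each p-value measures the spread between these libraries, which may be technical. Irradiation away from the cranium was not analysed here.

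In the marrow a promyelocyte first makes azurophil (primary) granules holding serine proteases and myeloperoxidase. The cell then shuts those genes down and, as a myelocyte and metamyelocyte, loads lactoferrin and cathelicidin into specific granules, followed by gelatinase granules and the cytosolic S100 proteins. The mature cell carries chemokine, formyl peptide and growth factor receptors before it leaves for the blood, and skull marrow is known to send myeloid cells through bone channels to the meninges.

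The members are ordered by these roles. The 5 promyelocyte members are Elane (neutrophil elastase), Mpo (myeloperoxidase), Prtn3 (proteinase 3), Ctsg (cathepsin G) and Ms4a3, a membrane protein of granulocyte and monocyte progenitors. The 2 regulators are Gfi1, a repressor needed for granulocyte fate, and Cebpe, the factor that drives specific granule genes. The other 30, called later members below, comprise 11 granule and matrix proteins, 4 cytosolic proteins, 11 surface receptors, 2 integrins and 2 oxidase subunits.

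Several members are neighbours in the genome (GENCODE M21 on GRCm38). Prtn3 (chr10:79874476-79883174) lies next to Elane (chr10:79886247-79888215). Camp (chr9:109847379-109849617), Ngp (chr9:110419747-110423012) and Ltf (chr9:111019271-111042767) share a stretch of chromosome 9, S100a8 (chr3:90668978-90670035) and S100a9 (chr3:90692632-90695721) lie on chromosome 3, and Trem1 (chr17:48232768-48246924) and Trem3 (chr17:48247777-48258841) are adjacent on chromosome 17. Exons of 6 members overlap another gene. On the opposite strand these are Mpo, by 512 bases with Gm11505, Prtn3, by 159 with Plppr3, Gfi1, by 101 with A430072P03Rik, and Ncf1, by 408 with Gtf2ird2. On the same strand Fpr2 shares 48 bases with Fpr3 and Itgam 3450 with Gm49368. The strand setting of the counting is not given in the sources used here, so counts of the opposite-strand members may include reads of the partner. For Fpr2 and Itgam it is not given whether reads shared with the partner were counted or left out. Chil3 and Ly6g belong to families with close copies and are uncertain because the handling of reads that match several copies is not given.

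The promoters of 5 genes on which the results turn are shown: those of 2 promyelocyte proteases (Elane, Ctsg), of 2 proteins of the specific granule stage (Camp, Ngp) and of the decoy receptor Il1r2. Each line is the 250 bases before the RefSeq transcript start on GRCm38.p6, read 5′ to 3′ on the strand of the gene. They lie at chr10:79886062-79886311 (plus strand, Elane), chr14:56102575-56102824 (minus strand, Ctsg), chr9:109849457-109849706 (minus strand, Camp), chr9:110419558-110419807 (plus strand, Ngp) and chr1:40085843-40086092 (plus strand, Il1r2). GENCODE M21 starts Elane, Camp and Ngp inside these windows and Il1r2 upstream of its window (chr1:40074079-40125231). Capitals mark matches to the core letters of 2 kinds of myeloid factor, TTNNGNAA of C/EBP proteins and GAGGAA of PU.1, on either strand.
Elane: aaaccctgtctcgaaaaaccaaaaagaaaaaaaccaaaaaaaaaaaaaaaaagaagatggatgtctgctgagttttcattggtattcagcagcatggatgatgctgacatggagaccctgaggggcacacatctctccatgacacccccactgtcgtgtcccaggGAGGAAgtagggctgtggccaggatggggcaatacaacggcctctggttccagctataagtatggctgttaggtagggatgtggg
Ctsg: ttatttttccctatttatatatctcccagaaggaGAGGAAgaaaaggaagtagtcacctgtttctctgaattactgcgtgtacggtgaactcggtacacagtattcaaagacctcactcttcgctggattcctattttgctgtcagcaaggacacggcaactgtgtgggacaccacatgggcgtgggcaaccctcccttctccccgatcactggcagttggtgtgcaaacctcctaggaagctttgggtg
Camp: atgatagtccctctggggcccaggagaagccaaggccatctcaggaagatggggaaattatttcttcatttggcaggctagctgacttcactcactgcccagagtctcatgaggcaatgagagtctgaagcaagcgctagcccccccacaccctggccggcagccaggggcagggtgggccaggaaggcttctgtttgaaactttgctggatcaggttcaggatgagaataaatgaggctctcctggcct
Ngp: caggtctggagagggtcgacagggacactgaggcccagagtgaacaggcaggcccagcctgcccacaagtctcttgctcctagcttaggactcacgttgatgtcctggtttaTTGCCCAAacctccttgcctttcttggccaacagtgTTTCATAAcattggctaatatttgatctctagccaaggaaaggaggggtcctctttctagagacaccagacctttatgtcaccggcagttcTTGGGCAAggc
Il1r2: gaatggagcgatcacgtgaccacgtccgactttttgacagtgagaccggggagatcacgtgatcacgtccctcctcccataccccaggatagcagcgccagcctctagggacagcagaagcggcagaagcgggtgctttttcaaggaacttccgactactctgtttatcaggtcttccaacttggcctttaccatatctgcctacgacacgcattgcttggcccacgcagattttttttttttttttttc
Each protease promoter held 1 PU.1 core, at position -85 from the start of Elane and -216 from that of Ctsg, and no C/EBP core. Ngp held 3 C/EBP cores, at positions -138, -102 and -11, while Camp and Il1r2 held neither motif in this window. Of the 37 members, 34 matched an entry by symbol, and Cebpe, Mmp9 and Trem3 did not. A C/EBP core stood in a promoter of 18 of the 34 and in 36.8% of all 32851 promoters, and a PU.1 core in 20 of the 34 and in 23.3% of all. GAGGAA can lie within the C/EBP letters, so that a single stretch may match both. The palindrome of the glucocorticoid receptor was in none of the 34 and in 0.4% of all. A match describes letters only.

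Depth ran from 14.2 to 27.3 M counts per library, and the 37 members took 0.671 to 1.45% of the counts in skull, 0.0602 to 0.139% in meninges and 0.0029 to 0.00793% in brain. All 37 had counts in every skull and meninges library. Within skull, 1 library of each group stood apart for nearly the whole list. The first library at 24 h was the lowest of its group in 37 of 37 members, the third at 0.5 h the highest in 35, and the third untreated library the lowest in 36, all but Mmp9. The summed level of the members was 6547, 9394 and 9229 CPM at 24 h, 10760, 9420 and 13610 CPM at 0.5 h and 13370, 12030 and 7768 CPM in untreated skull (CPM, a count scaled to the size of its library, with sizes adjusted by edgeR's TMM method). The untreated sums alone spanned most of the range of the irradiated ones. In bulk samples, fewer neutrophils, less RNA per neutrophil and a smaller share of marrow in the dissected skull cannot be told apart. Markers of osteoblasts, the bone-forming cells (8 genes), summed to 62480, 72930 and 61320 CPM at 24 h. Their sums were 64310, 80450 and 52680 CPM at 0.5 h and 83460, 53160 and 96780 CPM in untreated skull. Muscle markers (5 genes) ran from 489 to 2789 CPM over the skull libraries. The part of bone and muscle in the spread of the members was not tested.

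Untreated skull held the whole programme, led by genes of cytosolic and specific granule proteins and not by receptors of the mature cell. Per kilobase of exon, the scale on which genes can be compared, S100a9 stood at 3613 CPM, Ngp at 1496, S100a8 at 1166 and Camp at 719 CPM per kilobase. Elane, at 217 CPM per kilobase, was the highest of the promyelocyte members, followed by Prtn3 at 116, Mpo at 81.2, Ctsg at 56.7 and Ms4a3 at 18.2. The lowest members were Gfi1 at 4.07, Mmp25, a membrane-bound protease, at 4.7 and Fpr1, a formyl peptide receptor, at 5.1 CPM per kilobase.

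**Figure D1:**
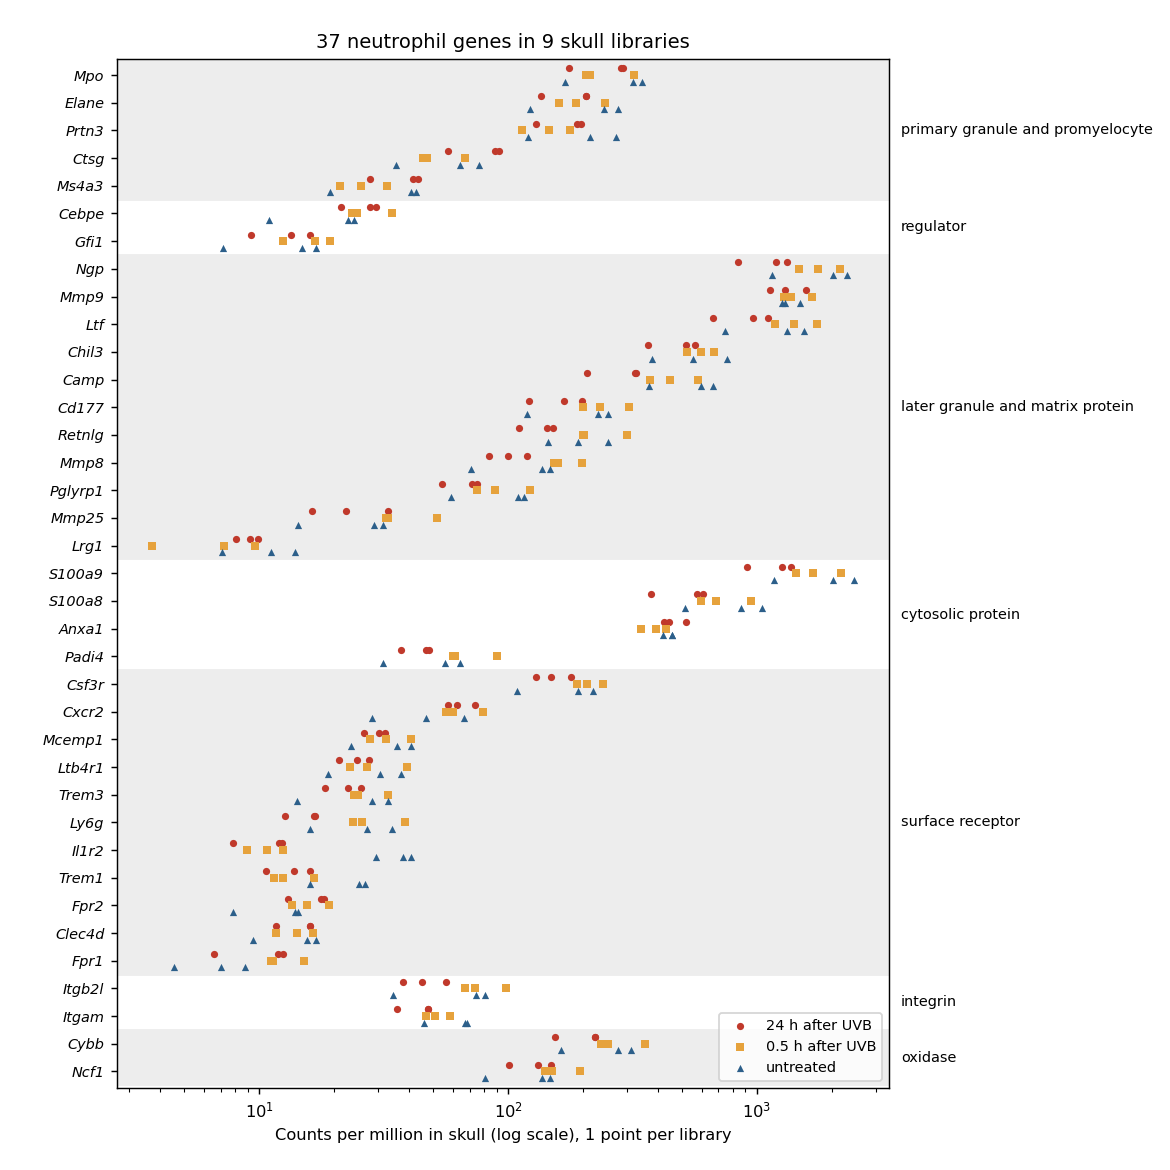
CPM of all 37 genes in each skull library, on a log axis, grouped by role (24 h, 0.5 h and untreated; 3 libraries each). The groups overlap for most genes, and Il1r2 is the member whose untreated libraries stand well above all irradiated ones.

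At 24 h against untreated skull, 3 of 37 members fell and none rose, and all 3 were later members: Il1r2, Trem1 and Camp. Over all 17426 genes tested 20.9% were called, 10.6% higher and 10.4% lower, so the share of members that fell is near the background. The median log2 fold change of the 37 was -0.23, against -0.00 over all genes, and 28 of 37 lay below 0. By role, 11 of 11 later granule and matrix proteins, 3 of 4 cytosolic proteins, 7 of 11 receptors and 3 of 5 promyelocyte members were below 0. Tests are edgeR's quasi-likelihood tests with Benjamini-Hochberg adjustment over all genes tested, called at an adjusted p under 0.05.

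Il1r2 encodes the decoy receptor that binds interleukin 1 without signalling, and it gave the largest difference of the list. It measured 7.85, 12 and 12.3 CPM at 24 h, 10.8, 8.89 and 12.5 CPM at 0.5 h and 37.9, 40.6 and 29.5 CPM in untreated skull. Every irradiated library was below every untreated one, and the 2 irradiated groups covered nearly the same range. The log2 fold change was -1.75 ± 0.19 (SE) at 24 h (adjusted p = 0.00013) and -1.75 ± 0.19 at 0.5 h (adjusted p = 0.00141), and the 2 comparisons share the untreated libraries. Between 24 h and 0.5 h it was -0.00 ± 0.19 (adjusted p = 0.999).

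Trem1, an activating receptor that amplifies inflammatory signals of neutrophils and monocytes, differed by less. Its levels were 10.7, 13.7 and 16 CPM at 24 h, 11.5, 12.5 and 16.6 CPM at 0.5 h and 26.7, 25.2 and 15.9 CPM in untreated skull. The third untreated library lay among the irradiated ones. Trem1 fell by 0.75 ± 0.22 on the log2 scale at 24 h (adjusted p = 0.0306), and at 0.5 h the log2 fold change was -0.74 ± 0.22 (adjusted p = 0.0736). Its neighbour Trem3, a related receptor, was at -0.18 ± 0.28 at 24 h (adjusted p = 0.706).

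Camp encodes cathelicidin, the antimicrobial peptide precursor of specific granules. It was at 208, 324 and 328 CPM at 24 h, 449, 373 and 580.0 CPM at 0.5 h and 667, 598 and 370.0 CPM in untreated skull. All libraries at 24 h were below all others, while those at 0.5 h overlapped the untreated ones. Camp fell by 0.93 ± 0.27 on the log2 scale at 24 h (adjusted p = 0.0458) and stood at -0.22 ± 0.27 at 0.5 h (adjusted p = 0.685).

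The calls of Camp and Trem1 at 24 h ended without single libraries. For Camp the adjusted p became 0.127 without the first untreated library, 0.135 without the second untreated library, 0.0706 without the first 0.5 h library, 0.106 without the first 24 h library, 0.0791 without the second 24 h library and 0.0753 without the third 24 h library. For Trem1 it became 0.108 without the first untreated library, 0.0898 without the second untreated library, 0.115 without the first 24 h library and 0.0737 without the second 24 h library. Without the third untreated library, the low one, 9 members fell at 24 h instead of 3: Itgb2l, Ly6g, Il1r2, Mmp8, Itgam, Trem1, Ngp, S100a9 and Camp. With all libraries, Camp and Il1r2 alone had 3 libraries at 24 h below all 3 untreated ones, 2 of 37 against 18.1% of all genes, and no member had them above, against 19.6%.

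Ngp and the calprotectin chains, the 3 members with the highest level per kilobase, did not pass the test at 24 h. Ngp, a secondary granule protein related to cathelicidin, was at 839.8, 1316 and 1195 CPM at 24 h, 1754, 1482 and 2166 CPM at 0.5 h and 2308, 2027 and 1148 CPM in untreated skull, a log2 fold change at 24 h of -0.71 ± 0.27 (adjusted p = 0.0947). S100a9, a chain of the calcium- and zinc-binding protein calprotectin, measured 910.2, 1376 and 1263 CPM at 24 h, 1686, 1432 and 2171 CPM at 0.5 h and 2459, 2026 and 1174 CPM in untreated skull, with -0.67 ± 0.28 at 24 h (adjusted p = 0.121). S100a8, the other chain, measured 377, 608 and 574 CPM at 24 h, 686, 595 and 949 CPM at 0.5 h and 1053, 861 and 515 CPM in untreated skull, with -0.64 ± 0.30 at 24 h (adjusted p = 0.179). In each of these 3 genes the third untreated library lay inside the 24 h range and the other two lay above it.

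None of the 5 promyelocyte genes passed at 24 h, and they lay on both sides of 0. Mpo was at 175, 289.7 and 284 CPM at 24 h, 214, 205 and 322 CPM at 0.5 h and 318, 346 and 169 CPM in untreated skull, with a log2 fold change of -0.16 ± 0.33 at 24 h (adjusted p = 0.788). Elane was at 135, 205 and 205 CPM at 24 h, 188, 161 and 245 CPM at 0.5 h and 243, 276 and 123 CPM in untreated skull, with -0.23 ± 0.33 at 24 h (adjusted p = 0.674). In both, the untreated libraries alone spanned the levels of all others. Ctsg was at 57.6, 88.5 and 91.9 CPM at 24 h, 47.4, 45.6 and 67.4 CPM at 0.5 h and 64.2, 76.2 and 35.3 CPM in untreated skull, with 0.43 ± 0.32 at 24 h (adjusted p = 0.388). Prtn3 and Ms4a3 gave -0.23 ± 0.32 and 0.13 ± 0.32 at 24 h. With libraries scaled to the members, a setting added after the values were seen, Mpo and Elane lay at 0.08 and 0.02, on the other side of 0.

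Of the regulators, Cebpe had 21.2, 29.4 and 27.9 CPM at 24 h, 24.8, 23.5 and 34.2 CPM at 0.5 h and 22.7, 24.1 and 11 CPM in untreated skull. Gfi1 had 9.26, 15.9 and 13.5 CPM at 24 h, 19.2, 12.4 and 16.7 CPM at 0.5 h and 16.9, 14.9 and 7.17 CPM in untreated skull. The groups overlapped in both, and the log2 fold changes at 24 h were 0.44 ± 0.28 for Cebpe (adjusted p = 0.317) and -0.02 ± 0.31 for Gfi1 (adjusted p = 0.978).

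Among receptors, Csf3r, the receptor of granulocyte colony-stimulating factor, was at 129, 179 and 148 CPM at 24 h, 207, 189 and 241 CPM at 0.5 h and 191, 219 and 109 CPM in untreated skull. Cxcr2, the chemokine receptor that draws mature neutrophils out of the marrow, was at 57.4, 73.6 and 62.3 CPM at 24 h, 60.0, 56.5 and 79 CPM at 0.5 h and 46.6, 66.7 and 28.4 CPM in untreated skull. The 24 h and untreated libraries overlapped in both, with log2 fold changes at 24 h of -0.18 ± 0.25 (adjusted p = 0.654) for Csf3r and 0.45 ± 0.29 (adjusted p = 0.326) for Cxcr2. Both formyl peptide receptors, which sense bacterial peptides, lay above 0 at 24 h, Fpr1 at 0.60 ± 0.28 (adjusted p = 0.153) and Fpr2 at 0.43 ± 0.23 (adjusted p = 0.2). Ly6g, the surface antigen used to sort mouse neutrophils, was at 12.7, 16.6 and 16.7 CPM at 24 h, 23.9, 25.9 and 38.4 CPM at 0.5 h and 34.3, 27.2 and 16 CPM in untreated skull, a log2 fold change of -0.76 ± 0.28 at 24 h (adjusted p = 0.0899).

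No integrin chain or oxidase subunit passed at 24 h. Itgam, the CD11b chain shared with monocytes and macrophages, was at 35.8, 47.8 and 47.7 CPM at 24 h, 50.7, 46.8 and 58.5 CPM at 0.5 h and 68.6, 67.2 and 45.7 CPM in untreated skull, with -0.47 ± 0.17 on the log2 scale at 24 h (adjusted p = 0.0708). Itgb2l, a relative of the beta chain that pairs with CD11b, was at 38, 56.3 and 45 CPM at 24 h, 73.4, 67 and 97.9 CPM at 0.5 h and 80.6, 74 and 34.4 CPM in untreated skull, with -0.44 ± 0.33 at 24 h (adjusted p = 0.396). The third untreated library was inside the 24 h range for Itgam and below it for Itgb2l, and the other two were above it in both genes. Cybb, the membrane subunit of the phagocyte oxidase, was at 154, 225 and 223 CPM at 24 h, 251, 237 and 355 CPM at 0.5 h and 276, 313 and 163 CPM in untreated skull, with -0.32 ± 0.28 at 24 h (adjusted p = 0.462). Its cytosolic partner Ncf1 was at 101, 148 and 132 CPM at 24 h, 151, 140.3 and 195 CPM at 0.5 h and 147, 137 and 80.5 CPM in untreated skull, with 0.06 ± 0.25 at 24 h (adjusted p = 0.898).

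Ltf, which encodes the iron-binding protein lactoferrin of specific granules, was at 666, 1107 and 962 CPM at 24 h, 1407, 1181 and 1745 CPM at 0.5 h and 1543, 1320 and 743 CPM in untreated skull, with -0.40 ± 0.29 at 24 h (adjusted p = 0.379). The remaining members gave log2 fold changes at 24 h between -0.54 for Retnlg and 0.06 for Anxa1, and none of them passed. The others were Pglyrp1 (-0.50 ± 0.29), Cd177, a surface glycoprotein of neutrophils (-0.30 ± 0.32), Mmp8 (-0.23 ± 0.27), Mmp25 (-0.07 ± 0.37), Chil3, a chitinase-like protein (-0.23 ± 0.25), and Lrg1 (-0.25 ± 0.32). Also among them were Padi4, the enzyme that citrullinates histones in neutrophil extracellular traps (-0.20 ± 0.27), Ltb4r1, a leukotriene B4 receptor (-0.25 ± 0.26), Clec4d (0.05 ± 0.22) and Mcemp1 (-0.17 ± 0.20).

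Mmp9, the gelatinase of the last granule class, was at 1127, 1302 and 1580 CPM at 24 h, 1374, 1287 and 1670 CPM at 0.5 h and 1295, 1257 and 1486 CPM in untreated skull. Its log2 fold change at 24 h was -0.01 ± 0.14 (adjusted p = 0.969), and it alone was not lowest in the third untreated library. Osteoclasts, the bone-resorbing cells of the skull, make Mmp9 too, and 5 osteoclast markers, all detected, summed to 3890, 4309 and 5268 CPM at 24 h, 3318, 3189 and 3376 CPM at 0.5 h and 3559, 3357 and 4882 CPM in untreated skull. In each group the third library was the highest both in Mmp9 and in these markers. At 0.5 h that library led the markers by little and was also the highest of its group in 35 of 37 members. The part of osteoclasts in the Mmp9 values was not tested.

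**Figure D2:**
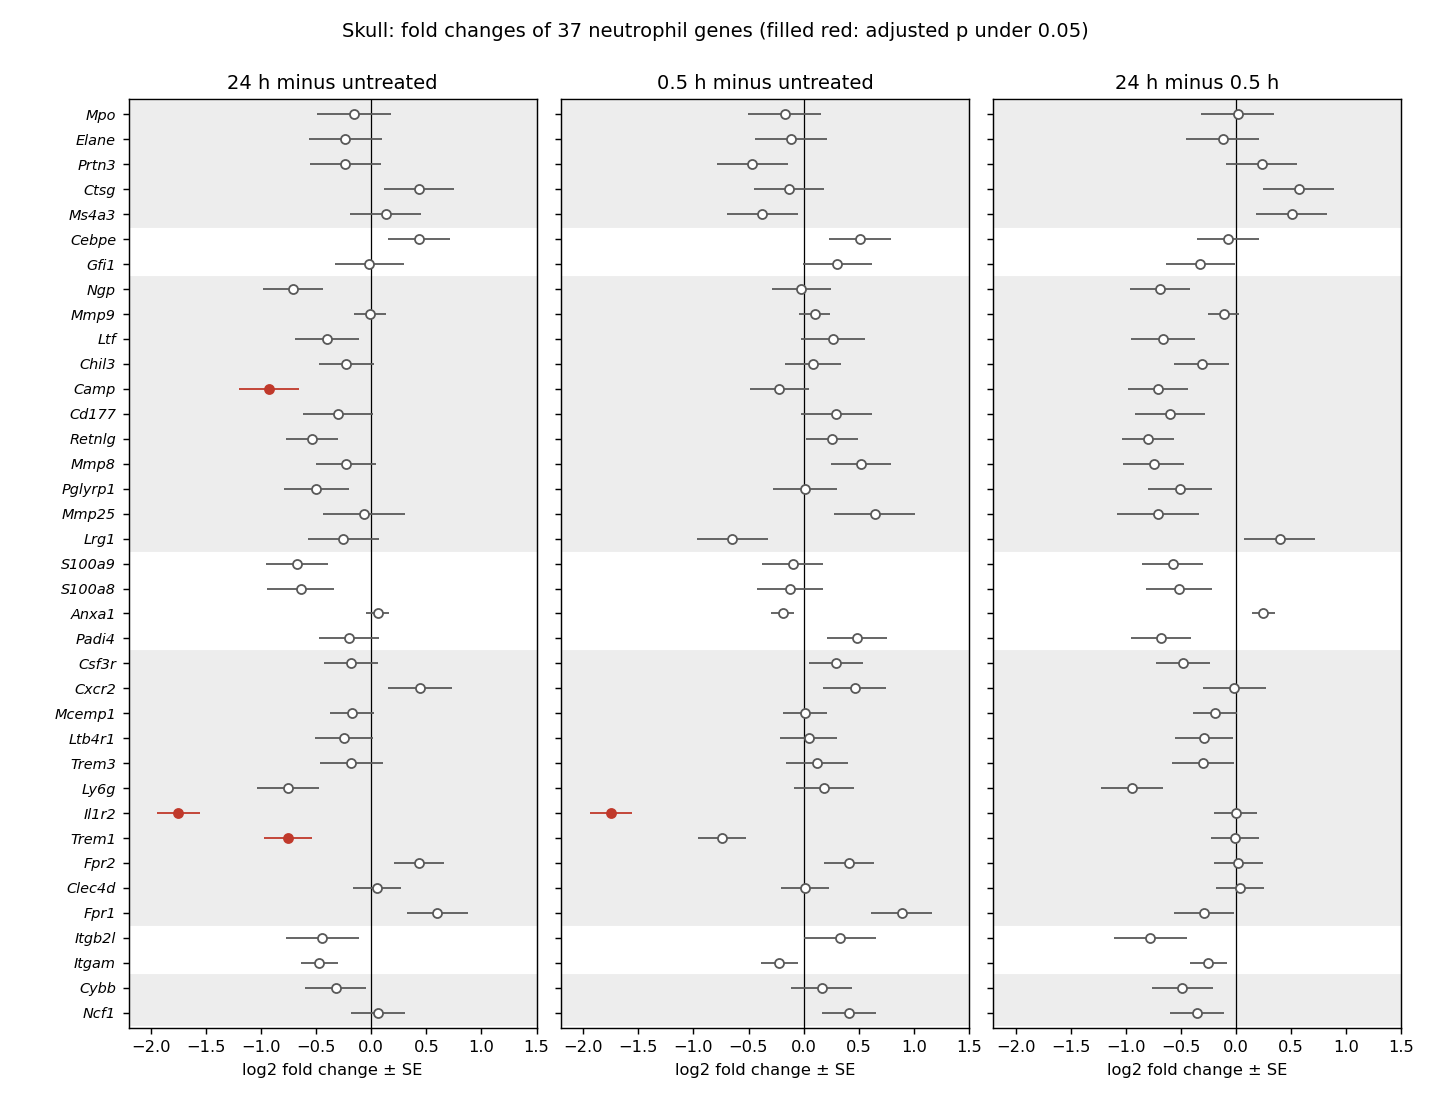
Log2 fold change ± SE of the 37 genes in skull for 24 h minus untreated, 0.5 h minus untreated and 24 h minus 0.5 h, 3 libraries a group; filled points passed an adjusted p of 0.05. Il1r2, Trem1 and Camp are filled at 24 h, Il1r2 at 0.5 h, and no gene between 24 h and 0.5 h.

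At 0.5 h against untreated skull, 1 of 37 members fell and none rose. It was Il1r2, described above, while 4.9% of all genes were called, 1.96% higher and 2.94% lower. The median log2 fold change of the members was 0.08, and 23 of 37 lay above 0. Fpr1 had the smallest p on the higher side, at 6.55, 12.5 and 11.9 CPM at 24 h, 11.4, 11.2 and 15.1 CPM at 0.5 h and 8.73, 6.99 and 4.55 CPM in untreated skull, a log2 fold change of 0.89 ± 0.28 at 0.5 h (adjusted p = 0.0896). Fpr1, the collagenase gene Mmp8 and Mmp25 had all 3 libraries at 0.5 h above all untreated ones, 3 of 37 against 13.4% of all genes, and Il1r2 alone had them below, 1 of 37 against 14.2%. The 5 promyelocyte members were all below 0, between -0.47 for Prtn3 and -0.11 for Elane, and 8 of the 11 later granule and matrix proteins were above 0. Without the third untreated library Trem1 fell too, by 0.93 on the log2 scale (adjusted p = 0.0259).

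Between 24 h and 0.5 h no member passed, against 16.1% of all genes tested, 8.39% higher and 7.74% lower. Of the members 8 had an unadjusted p under 0.05, against 5367 of all 17426 genes, and DESeq2 called 4 members. The median log2 fold change was -0.30, 29 of 37 lay below 0, and 10 of the 11 later granule and matrix proteins were among them. Ly6g, at -0.94 ± 0.28 (adjusted p = 0.0515), and Retnlg, a resistin-like protein of granulocytes, at -0.80 ± 0.24 (adjusted p = 0.0554), came nearest to the threshold. Retnlg was at 111, 151 and 143 CPM at 24 h, 201, 202 and 299.99 CPM at 0.5 h and 251, 191 and 144 CPM in untreated skull. In 12 of 37 members all libraries at 24 h were below all at 0.5 h, against 18% of all genes, and in none were they above, against 19.6%. Without the third untreated library, which is in neither group and enters through the fit's estimates of spread and scaling, the test called 7 members, all lower: Itgb2l, Ly6g, Mmp8, Padi4, Ngp, Retnlg and Csf3r.

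Because the replicates differed in the level of the whole list, genes were also set against each other within a library, where a shared factor cancels. A ratio shows unequal change of 2 genes and not which of them moved. The 3 pairs given here were chosen after their values were seen, so they are described and not tested. Elane over Camp was -0.62, -0.66 and -0.67 at 24 h, -1.26, -1.22 and -1.24 at 0.5 h and -1.45, -1.12 and -1.59 in untreated skull (log2). The 3 ratios at 24 h lay above the other 6, with a mean difference of 0.73 ± 0.14 (SE) between 24 h and untreated.

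Cathepsin G differed from elastase as well. Ctsg over Elane was -1.23, -1.21 and -1.16 at 24 h, -1.98, -1.82 and -1.86 at 0.5 h and -1.92, -1.85 and -1.80 in untreated skull (log2), a mean difference of 0.66 ± 0.04 between 24 h and untreated. Ctsg over Camp was -1.86, -1.87 and -1.83 at 24 h, -3.24, -3.03 and -3.11 at 0.5 h and -3.38, -2.97 and -3.39 in untreated skull (log2), a mean difference of 1.39 ± 0.14. In both ratios the libraries at 24 h lay above all 6 others, and those at 0.5 h overlapped the untreated ones.

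Averaged over the list, the mean log2 CPM of the 5 promyelocyte members minus that of the 30 later members was 0.39, 0.53 and 0.59 at 24 h, -0.11, -0.14 and -0.06 at 0.5 h and 0.14, 0.40 and 0.04 in untreated skull. The libraries at 0.5 h were below all others. The second untreated library lay just above the lowest of the 24 h libraries, so those groups overlapped. The mean difference was 0.31 ± 0.12 (SE) for 24 h minus untreated, -0.30 ± 0.11 for 0.5 h minus untreated and 0.61 ± 0.06 for 24 h minus 0.5 h. With medians over members in place of means, the difference between 24 h and untreated became 0.0534 and that between 0.5 h and untreated -0.57. With Gfi1 and Cebpe counted among the promyelocyte genes, 0.5 h minus untreated became -0.11. In meninges, 24 h minus untreated was 1.21 ± 0.57 (SE) for Elane over Camp, 1.10 ± 0.79 for Ctsg over Elane and 2.31 ± 1.15 for Ctsg over Camp. The difference of means there was 0.72 ± 0.76. The 24 h and untreated meninges libraries overlapped in each of these measures, so the direction is not particular to skull and the errors are large.

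Markers of other marrow cells moved beside these values. The 9 erythroid markers found in the table summed to 3248, 4748 and 3074 CPM at 24 h, 5693, 6819 and 8746 CPM at 0.5 h and 6061, 5457 and 5752 CPM in untreated skull, and 3 of 9 fell at 24 h against untreated skull and 8 of 9 were lower at 24 h than at 0.5 h. The 9 B lineage markers summed to 173, 238 and 142 CPM at 24 h, 313, 401 and 404 CPM at 0.5 h and 330.2, 346 and 306 CPM in untreated skull, and 6 of 9 fell at 24 h against untreated and 7 of 9 were lower at 24 h than at 0.5 h. At 0.5 h against untreated 1 of 9 B lineage markers rose, and no erythroid marker passed edgeR's test, with 4 of 9 at an unadjusted p under 0.05. Monocytes share progenitors with neutrophils, and 8 monocyte markers summed to 2447, 2476 and 2564 CPM at 24 h, 2233, 2155 and 2037 CPM at 0.5 h and 2157, 2208 and 2481 CPM in untreated skull, with 1 that rose and 1 that fell at 24 h against untreated. No monocyte marker passed between 24 h and 0.5 h, with 3 of 8 at an unadjusted p under 0.05. Single monocyte markers ranged from -0.80 to 0.73 on the log2 scale at 24 h against untreated skull. In meninges the same 8 summed to 1469 to 2116 CPM, so the sum is not taken as an amount of marrow monocytes. Over all genes tested, 10.4% fell and 10.6% rose at 24 h against untreated. At 24 h against 0.5 h 7.74% were lower and 8.39% higher, and at 0.5 h against untreated 2.94% fell and 1.96% rose. An unadjusted p under 0.05 was found in 3887 of 17426 genes at 0.5 h against untreated and in 5367 between 24 h and 0.5 h. None of the erythroid, B lineage and monocyte markers was at 0, and their part in the neutrophil values and ratios was not tested.

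**Figure D3:**
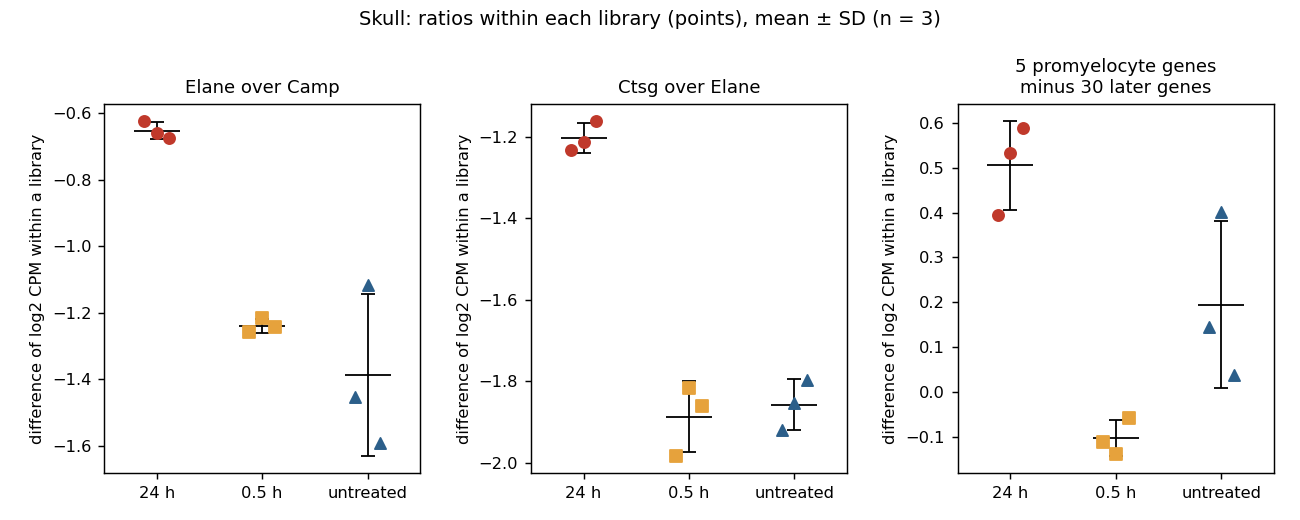
Within-library log2 ratios in skull: Elane over Camp, Ctsg over Elane, and the mean of the 5 promyelocyte genes minus the mean of the 30 later genes (points, libraries; bars, mean ± SD, n = 3 a group). At 24 h the 3 libraries lie above all others in both gene ratios, while in the difference of means 1 untreated library at 0.40 reaches the 24 h range.

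Each member was then given relative to the mean log2 CPM of the 37 genes in its library. This measure fixes that some members lie above and others below, and the shares over all genes are no like background for it, as set out below. At 24 h against untreated skull, 8 members stood above in all 3 libraries, against 8.32% of all genes: Fpr1, Cxcr2, Cebpe, Ctsg, Fpr2, Ms4a3, Ncf1 and Clec4d. Below in all 3 stood 9 members, against 4.84% of all genes: Il1r2, Camp, Trem1, Ly6g, Ngp, S100a9, S100a8, Itgam and Pglyrp1. The relative difference was 0.79 for Fpr1, 0.73 for Cxcr2, 0.71 for Cebpe and 0.68 for Ctsg at the upper end, and -1.55 for Il1r2, -0.71 for Camp and -0.52 for Trem1 at the lower end. By role, 2 of 5 promyelocyte members, 1 of 2 regulators, 4 of 11 receptors and 1 of 2 oxidase subunits stood above, and 3 of 11 granule and matrix proteins, 2 of 4 cytosolic proteins, 3 of 11 receptors and 1 of 2 integrins stood below. Elane, Prtn3 and Mpo, the other promyelocyte members, were at 0.03, 0.02 and 0.08.

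At 0.5 h against untreated skull 12 members stood above by the same measure, against 3.39% of all genes, and 10 below, against 4.3%. Those above were Cxcr2, Itgb2l, Mmp25, Cd177, Mmp8, Padi4, Ncf1, Ltf, Fpr1, Fpr2, Cebpe and Csf3r, and those below were Ms4a3, Ctsg, Lrg1, Il1r2, Prtn3, Itgam, Trem1, Mpo, S100a9 and Camp. Between 24 h and 0.5 h, 11 members stood above, against 20.3% of all genes, and included all 5 promyelocyte members, and 14 stood below, against 4.73%, including Camp, Ngp, Ltf, Retnlg and Ly6g. Members are compared here with their own mean, which fixes that some lie above and others below. Subtracting that mean takes shared spread out of the members and puts it into genes that do not share it. Members can therefore separate more readily than all genes in this measure, also at 24 h against untreated. The shares over all genes are thus no like background for these counts.

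**Figure D4:**
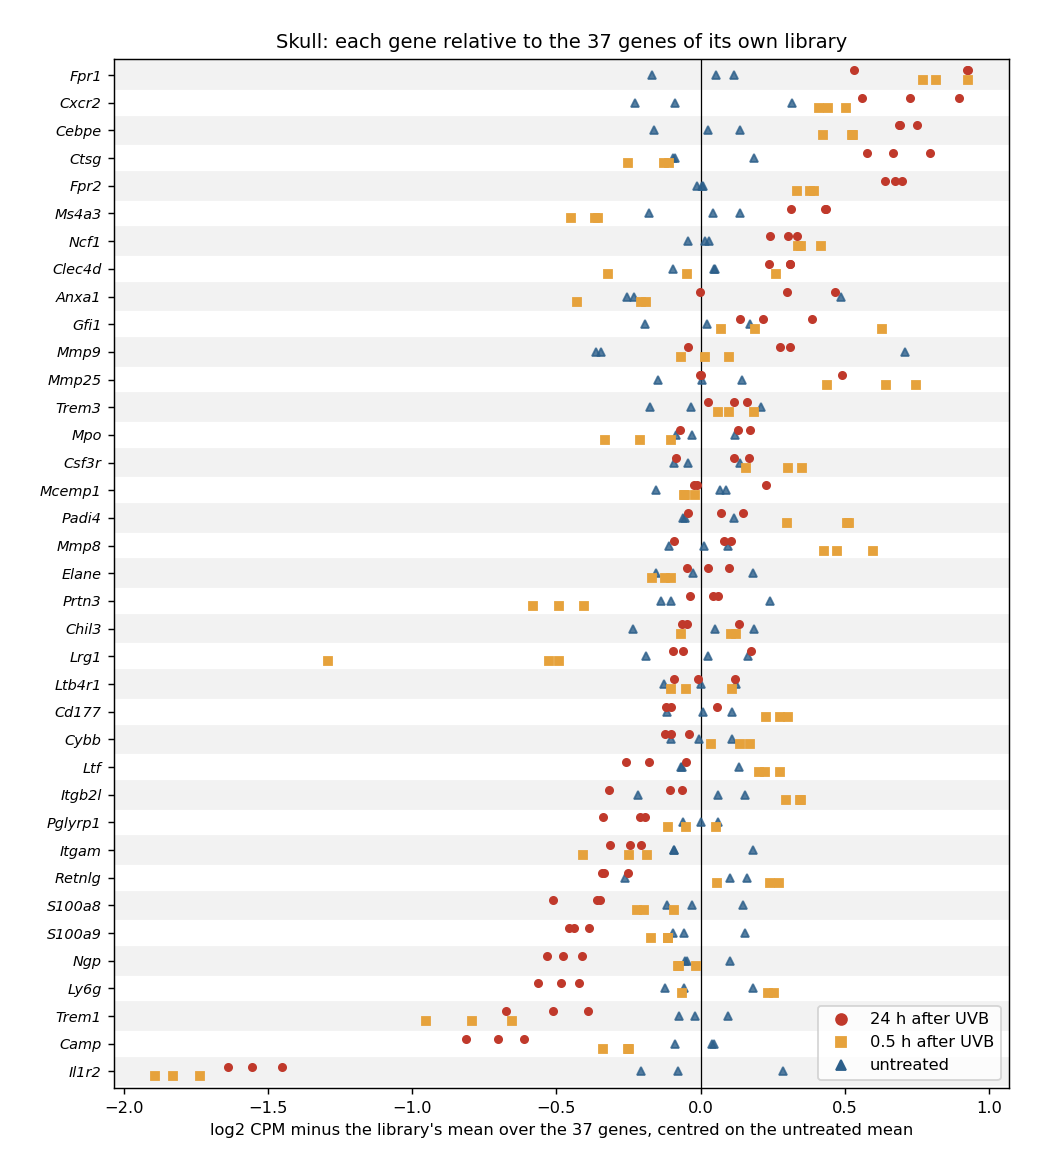
Level of each gene in skull relative to the mean of the 37 genes in the same library (log2), centred on the untreated mean, for the 24 h, 0.5 h and untreated libraries, 3 each. At 24 h Fpr1, Cxcr2 and Cebpe have the largest positive mean differences from untreated and Il1r2 and Camp the largest negative ones.

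A fit across all genes with the members' mean log2 CPM as a covariate was added after these values were seen. It called 16 members at 24 h against untreated skull, 7 higher and 9 lower, where 24.3% of all genes were called. Ctsg (0.71 ± 0.09, adjusted p = 0.000129), Ms4a3 (0.45 ± 0.09, adjusted p = 0.00321), Cebpe (0.74 ± 0.11, adjusted p = 0.000374) and Cxcr2 (0.71 ± 0.14, adjusted p = 0.00546) were among the higher ones. Camp (-0.70 ± 0.08, adjusted p = 3.05e-05), Ngp (-0.46 ± 0.08, adjusted p = 0.000774), S100a9 (-0.41 ± 0.08, adjusted p = 0.00237) and Il1r2 (-1.61 ± 0.13, adjusted p = 2.27e-06) were among the lower ones. It called 15 at 0.5 h against untreated skull, 8 higher and 7 lower, where 9.33% of all genes were called, and 16 between 24 h and 0.5 h, 6 higher and 10 lower, against 17.3%. Between 24 h and 0.5 h Ctsg was at 0.89 ± 0.10 (adjusted p = 5.02e-05) and Ms4a3 at 0.86 ± 0.10 (adjusted p = 6.29e-05), and Retnlg at -0.55 ± 0.10 (adjusted p = 0.00303) and Camp at -0.42 ± 0.08 (adjusted p = 0.00292). The covariate is made of the members themselves, so their spread around it is small by construction and these calls are no independent support. When libraries were instead scaled to equal means of the members, Il1r2 was the one member called at 24 h and at 0.5 h, and none was called between 24 h and 0.5 h. That scaling moved the median of all genes by 0.17, -0.11 and 0.28 in the 3 comparisons.

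In meninges all 37 members were detected. Untreated skull was higher than untreated meninges in 36 of 37 members, where 48.2% of all 21500 genes differed, 21.6% higher and 26.5% lower in skull. The exception was Lrg1, a secreted glycoprotein that endothelium also makes, at 0.47 ± 0.38 (adjusted p = 0.329). The median log2 fold change was 3.95. The promyelocyte members ranged from 4.82 for Ms4a3 to 5.23 for Elane, while Cybb and Anxa1, which other meningeal cells make too, had 2.02 ± 0.30 and 1.79 ± 0.61. The scraped meninges held the 8 osteoblast markers at 14090 to 39600 CPM in sum, with 52680 to 96780 CPM in skull. Of these 8, 7 were higher in untreated skull than in untreated meninges and 1 had a log2 fold change of -0.40. The sum is not taken as an amount of bone, and the part of bone and marrow in the meningeal values was not tested.

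No member passed in meninges at 24 h against untreated, where 8.42% of all 18542 genes did (3.97% higher, 4.45% lower). None passed at 0.5 h against untreated (0.874% of all genes, 0.367% higher and 0.507% lower) or between 24 h and 0.5 h (2.34%, with 1.07% higher and 1.27% lower). In edgeR the unadjusted p was under 0.05 in 3, 2 and 2 members, and DESeq2 called 1, Il1r2, at 24 h. Il1r2 also had the smallest p in edgeR at 24 h, at 0.837, 1.12 and 1.2 CPM at 24 h, 1.57, 0.47 and 1.46 CPM at 0.5 h and 2.4, 1.78 and 5.25 CPM in untreated meninges. All irradiated libraries were below all untreated ones, with a log2 fold change of -1.57 ± 0.52 at 24 h (adjusted p = 0.0895) and -1.41 ± 0.51 at 0.5 h (adjusted p = 0.252). Retnlg was next at 24 h, at 7.23, 6.98 and 11.1 CPM at 24 h, 15.3, 14.6 and 7.51 CPM at 0.5 h and 13.5, 11.3 and 19.3 CPM in untreated meninges, with -0.80 ± 0.31 at 24 h (adjusted p = 0.148).

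Clec4d, a C-type lectin receptor of myeloid cells, had the smallest p in meninges at 0.5 h against untreated, -1.18 ± 0.33 (adjusted p = 0.141), and between 24 h and 0.5 h, 1.11 ± 0.33 (adjusted p = 0.125). It was at 1.79, 3.31 and 3.61 CPM at 24 h, 1.57, 1.34 and 1.12 CPM at 0.5 h and 3.53, 2.61 and 3.01 CPM in untreated meninges, with the 0.5 h libraries below all others. Ly6g was second between 24 h and 0.5 h, at -1.76 ± 0.67 (adjusted p = 0.216).

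The meningeal libraries differed among themselves in the whole list. The third untreated library was the highest of its group in 34 of 37 members and the first at 0.5 h in 33. Summed levels of the members were 670.0, 710.3 and 785 CPM at 24 h, 1123, 857 and 672 CPM at 0.5 h and 807, 647 and 1378 CPM in untreated meninges. Elane showed that spread, at 8.96, 5.26 and 3.04 CPM at 24 h, 13.6, 5.64 and 2.02 CPM at 0.5 h and 2.93, 2.61 and 14.2 CPM in untreated meninges. Muscle markers (5, all detected) ran from 5.64 CPM in the third library at 24 h to 3898 CPM in the second untreated one, and their part was not tested.

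In brain 25 of the 37 members did not pass the filter on low counts, which asks for about 10 counts in 3 libraries. Between 24 and 31 of the 37 had a count in a given library, and Ms4a3 and Ly6g had none in the untreated brain libraries. Those 25 entered the fit of all 27 libraries through skull and meninges, where they are high, so that a difference from brain had to follow for them. Of the 12 that passed the filter in brain, 12 were higher in untreated skull than in untreated brain, where 75.6% of all genes differed, 37.3% higher and 38.3% lower in skull. The smallest differences over all 37 were those of Fpr1, at 3.50 ± 0.46, and of Itgam, which microglia make, at 3.92 ± 0.24.

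The filter on low counts kept 12 of 37 members in brain, and none of the 12 passed the test. At 24 h 2.62% of 18172 genes were called, 1.21% higher and 1.42% lower, at 0.5 h 0.0055%, and between 24 h and 0.5 h 0.22%, with 0.088% higher and 0.132% lower. In edgeR the unadjusted p was under 0.05 in 2, 0 and 1 of the members, and DESeq2 called none. Pglyrp1, a peptidoglycan recognition protein, had the smallest p at 24 h, at 2.87, 2.85 and 4.15 CPM at 24 h, 6.28, 5.72 and 3.27 CPM at 0.5 h and 6.72, 6.81 and 4.51 CPM in untreated brain, a log2 fold change of -0.87 ± 0.28 (adjusted p = 0.0987). Il1r2 was second, at 0.479, 0.475 and 0.208 CPM at 24 h, 0.916, 0.2 and 0.544 CPM at 0.5 h and 1.86, 0.851 and 0.636 CPM in untreated brain, with -1.55 ± 0.64 at 24 h (adjusted p = 0.204). In both genes all 24 h libraries were below all untreated ones. At 0.5 h against untreated brain the smallest p values were those of Cybb, at -1.16 ± 0.58 (adjusted p = 0.938), and Il1r2, at -1.04 ± 0.61 (adjusted p = 0.966). Between 24 h and 0.5 h they were those of Pglyrp1, at -0.63 ± 0.28 (adjusted p = 0.381), and Prtn3, at -1.21 ± 0.60 (adjusted p = 0.43). The first untreated brain library held 30.3 CPM of Anxa1, an inhibitor of leukocyte recruitment made by many cells, and the other untreated ones held 1.44 and 1.14 CPM. For Mmp9 the 3 untreated values were 12, 1.38 and 2.23 CPM.

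No member's response passed the test of the difference between tissues. Against brain that test could bear on 12 members only, since the other 25 did not pass the filter in the brain libraries and could hardly show a response there. Of 21500 genes, 0.633% differed between skull and meninges at 24 h (0.321% higher, 0.312% lower) and 6.71% between skull and brain (3.33% higher, 3.39% lower). At 0.5 h the shares were 0.0093% and 0.209%. For Il1r2 the skull response minus the meninges response was -0.15 ± 0.61 at 24 h (adjusted p = 0.993) and -0.32 ± 0.58 at 0.5 h (log2). Minus the brain response it was -0.17 ± 0.79 at 24 h and -0.66 ± 0.67 at 0.5 h. For Camp the skull response minus the meninges response at 24 h was 0.53 ± 0.71. The unadjusted p in edgeR was under 0.05 in 0 and 4 members at 24 h, against meninges and brain, and in 1 and 3 at 0.5 h, and DESeq2 called none. Of those against brain, 2 at 24 h and 2 at 0.5 h were among the 12. Errors of this size do not show that the tissues responded alike.

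**Figure D5:**
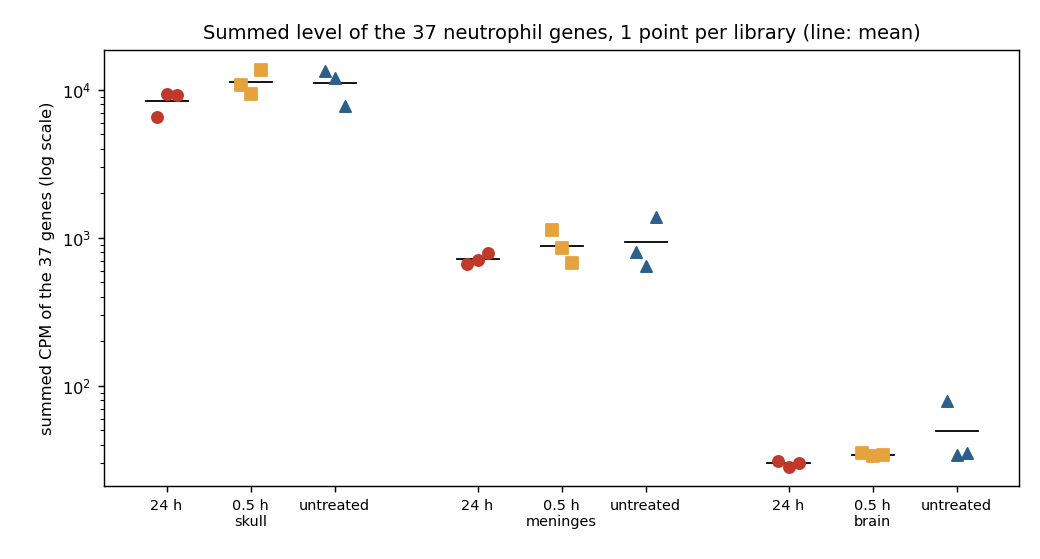
Summed CPM of the 37 genes in each library, on a log axis, for 24 h, 0.5 h and untreated in skull, meninges and brain (points, 3 libraries each; line, mean). Skull libraries lie between 6547 and 13610 CPM, meninges between 647 and 1378 CPM and brain between 28.5 and 79.0 CPM.

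Other genes of the neutrophil programme, a list of 58 kept apart from the members, were read in skull with the same test. Of the 53 tested, 3 rose and 9 fell at 24 h against untreated skull, 1 rose and 2 fell at 0.5 h, and 3 were higher and 4 lower at 24 h than at 0.5 h. Over all genes tested, 20.9% were called in the first comparison (10.6% higher, 10.4% lower), 4.9% in the second (1.96% and 2.94%) and 16.1% in the third (8.39% and 7.74%). The share of this list called in either direction is near the background in each, while at 24 h more of the list fell than rose. Of the 10 genes grouped as factors in this list, 1 rose and 5 fell at 24 h, and 1 rose and 1 fell at 0.5 h. The median log2 fold change of the list was -0.36, -0.07 and -0.28 in the 3 comparisons. Ctsc, the protease that activates the granule serine proteases, rose at 24 h, with 183, 186 and 240.4 CPM at 24 h, 119, 107 and 125 CPM at 0.5 h and 126, 179.8 and 130.03 CPM in untreated skull (0.48 ± 0.15, adjusted p = 0.0411). Cxcl5, a chemokine that acts on Cxcr2, rose too, with 10.8, 9.72 and 14.7 CPM at 24 h, 0.659, 1.06 and 1.53 CPM at 0.5 h and 1.6, 1.99 and 1.66 CPM in untreated skull (2.74 ± 0.28, adjusted p = 6.89e-05). In both genes every library at 24 h was above all others. Cxcl5 is 1 of 10 genes grouped as growth and release genes in this list, of which 9 were tested. At 24 h 2 of these 9 lay above 0 and 7 below, with a median log2 fold change of -0.36 and a lowest of -2.06. Cxcl5 alone of the 9 was called. In edgeR 5 of the 9 had an unadjusted p under 0.05, against 5993 of all 17426 genes.

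Of the C/EBP factors in that list, Cebpa, Cebpb and Cebpd fell and Cebpg rose at 24 h. Cebpd, known from the acute phase response, had the smallest p, with 39.4, 36.8 and 42.8 CPM at 24 h, 63.1, 46.6 and 70.6 CPM at 0.5 h and 106, 119 and 132 CPM in untreated skull. The 3 groups did not overlap, with -1.58 ± 0.14 at 24 h (adjusted p = 4.57e-05) and -0.98 ± 0.14 at 0.5 h (adjusted p = 0.00476). Cebpb, a driver of emergency granulopoiesis, had 23.5, 26.3 and 11.5 CPM at 24 h, 36.8, 53.8 and 62.6 CPM at 0.5 h and 125, 108 and 55.9 CPM in untreated skull (-2.23 ± 0.43 at 24 h, adjusted p = 0.0129). On the log2 scale Cebpa was at -0.36 ± 0.10 and Cebpg at 0.63 ± 0.09 at 24 h. The other genes that fell at 24 h were Lyz1, a lysozyme, at -1.34 ± 0.30, Klf2, a factor of resting leukocytes and endothelium, at -1.04 ± 0.11, Hdc, which makes histamine, at -1.01 ± 0.25, Hcar2, a receptor of ketone bodies, at -0.86 ± 0.22, Gata2, a progenitor factor, at -0.71 ± 0.21 and Mxd1, an antagonist of Myc, at -0.55 ± 0.17. Several of these are made by other marrow and bone cells too. Between 24 h and 0.5 h Cxcl5 (3.41 ± 0.29), Il1b (0.97 ± 0.18) and Ctsc (0.80 ± 0.15) were higher at 24 h, and the chemokine gene Ccl6 (-0.92 ± 0.24), Klf2 (-0.79 ± 0.11), the progenitor factor Myb (-0.74 ± 0.22) and Cebpd (-0.60 ± 0.14) were lower. Il1b, which encodes a ligand of Il1r2, fell at 0.5 h, with 29.2, 23.9 and 35.8 CPM at 24 h, 16.2, 12.4 and 16.8 CPM at 0.5 h and 25.5, 34.1 and 24.8 CPM in untreated skull (-0.90 ± 0.18 at 0.5 h, adjusted p = 0.0182).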

How the data were processed

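Poly(A) RNA was measured in 27 libraries of 9 groups. The authors deposited whole-number counts per gene symbol. HISAT2 2.1.0 and mm10 are named in the submitters' processing notes. Which tool, gene models and strand option were used for counting is not given in the sources used here. No column of the table was left unused (0).

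Counts were scaled by TMM and tested with the quasi-likelihood F test (robust option) of edgeR 4.0.16 in R 4.3.3, after filterByExpr (minimum count 10, minimum total 15). The 9 libraries of a tissue made up each fit, and all 27 entered the fit for tissue differences. Benjamini-Hochberg adjustment ran over all genes tested, with a threshold of 0.05. The SE of a log2 fold change is its absolute value over the square root of F, and log2 CPM used a prior count of 2. The script was tested on simulated data. Totals of 14.2 to 27.3 M counts limit the precision of members with few counts, mostly in brain. Coordinates come from GENCODE M21 (GRCm38) and promoters from RefSeq (GRCm38.p6).

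Members and lists were chosen with earlier results of these data known. Levels in every skull library are given for members called there and, in each role, for the 2 with the highest mean skull CPM. In meninges and brain the 2 members with the smallest p per comparison are given. Other members, such as Ctsg, Ly6g, Retnlg and Fpr1, and the 3 gene pairs were named after their values were seen. Alternatives were RLE scaling, scaling without haemoglobin, mitochondrial and member genes, no filter, DESeq2 1.42.0, the 2 groups alone, a replicate block and leaving out each library. Scaling to the members and their mean as a covariate were chosen after seeing the data.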

Additional observations from a re-analysis of the deposited data

How the results depend on the processing

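In skull, edgeR called 3 members at 24 h against untreated, 1 at 0.5 h against untreated and 0 between 24 h and 0.5 h. RLE scaling and scaling without haemoglobin, mitochondrial and member genes gave the same counts. Where they differed, the counts were 6, 3 and 4 with DESeq2, 3 at 0.5 h with no filter, 6 between 24 h and 0.5 h from the 2 groups alone, 1 at 24 h scaled to the members and 16, 15 and 16 with the members' mean as a covariate. Leaving out 1 library gave 1 to 9, 1 to 2 and 0 to 7, each highest without the third untreated library. In meninges at 24 h no filter and DESeq2 each called 1 (Il1r2), and leaving out 1 library gave 0 to 1 (Cybb, without the second untreated library). In brain at 24 h no filter called 2 (Pglyrp1, Padi4). The 24 h difference between skull and brain gave 0 to 1 (Anxa1, without the second or the third untreated brain library). The cause was not tested.

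The promyelocyte minus later difference of means became 0.0534 for 24 h minus untreated with medians. For 0.5 h minus untreated it became -0.57 with medians and -0.11 with Gfi1 and Cebpe added. For 24 h minus 0.5 h it became 0.73 against granule and matrix proteins, 0.46 against receptors, 0.71 without members shared with other cells and 0.48 with Gfi1 and Cebpe added. Leaving out 1 library gave 0.23 to 0.41, -0.38 to -0.19 and 0.57 to 0.66 for the 3 differences. Of 646 values of single genes under alternatives, 560 kept direction and side of the threshold, 33 passed it, 16 no longer did and 37 changed sign. None of the 37 was called with either sign, and their adjusted p was at least 0.259. At 24 h the signs turned for Mmp9, Mpo, Elane, Gfi1 and Csf3r, to 0.097, 0.077, 0.020, 0.24 and 0.067 scaled to the members and to 0.0044, 0.12, 0.069, 0.29 and 0.048 with the members' mean as a covariate, and for Gfi1 to 0.024 with a replicate block. At 0.5 h Mmp9 came to -0.075 scaled to the members. Leaving out 1 library crossed 0 at 24 h, with -0.30 to 0.22 for Gfi1, -0.41 to 0.047 for Mpo, -0.43 to 0.023 for Csf3r, -0.15 to 0.10 for Mmp9 and -0.16 to 0.22 for Ncf1, and at 0.5 h, with -0.34 to 0.14 for S100a9, -0.36 to 0.11 for S100a8, -0.26 to 0.18 for Ngp, -0.42 to 0.018 for Mpo, -0.38 to 0.11 for Elane, -0.060 to 0.36 for Cybb and -0.016 to 0.18 for Mmp9. Il1r2 was called in skull under all 17 alternatives at both times, with an adjusted p of at most 0.00122 at 24 h and 0.0139 at 0.5 h, and Camp ended in 10 of 17 and Trem1 in 6 of 17 at 24 h.

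Between the groups of a tissue, same-numbered libraries did not deviate together (correlation -0.138 to 0.0646 in skull, -0.396 to 0.117 in meninges and -0.102 to 0.0704 in brain). Within a tissue the numbers are therefore not taken as pairs. Whether same-numbered skull, meninges and brain libraries of a group came from the same animal is not given in the labels and was not examined. The tests between tissues treat them as independent. With a replicate block, 1 member (Il1r2) was called in skull at 24 h, with 1 at 0.5 h and 0 between 24 h and 0.5 h.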

Other observations

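In meninges, where no member passed, 51 of the 58 other neutrophil genes were tested, and 4 rose and 8 fell at 24 h against untreated by edgeR's test, where 8.42% of all genes were called (3.97% higher, 4.45% lower). The chemokine genes Cxcl1 and Cxcl2, which draw neutrophils through Cxcr2, fell by 1.94 ± 0.39 and 3.75 ± 0.42 (log2 ± SE, adjusted p = 0.0145 and 0.000611). Cxcl2 was at 0.239, 0.592 and 1.08 CPM at 24 h, 3.09, 4.23 and 3.64 CPM at 0.5 h and 6.67, 9.36 and 9.73 CPM in untreated meninges. Cxcl12, which holds neutrophils in the marrow, was at 0.56 ± 0.09 (adjusted p = 0.00523). Csf1, a growth factor of macrophages, was at 0.65 ± 0.10 (adjusted p = 0.00315). Cebpb and Cebpd fell by 2.04 ± 0.33 and 1.52 ± 0.19, and Cebpg was at 0.61 ± 0.10. For none of the 53 genes of this list tested in all libraries did the 24 h response differ between skull and meninges by the test of the difference, and 3 had an unadjusted p under 0.05. These genes were named after their values were seen, and resident cells of the meninges make several of them.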
